A study of Drosophila melanogaster with 25 samples.

Results

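The RNA levels of 10 genes of the autophagy pathway were followed across the genotypes of a study of cell competition in Drosophila. They were the receptor gene ref(2)P and the core genes Atg1, Atg5, Atg7, Atg8a, Atg8b, Atg9, Atg13, Atg17 and Atg18a, taken by name from the 13955 genes of the deposited tables, and all 10 were found there through their FlyBase identifiers. The RNA came from whole wing imaginal discs of larvae in the wandering stage before pupation, raised at 25 °C, with 50 discs pooled in each sample. The study asked which genes differ between WT discs and discs made only of cells that are eliminated when they meet WT cells, before any such contact. The 25 samples came from 19 libraries, because the authors pooled 2 sequencing runs for each library of RpS15 and mahj and for WT1 and WT2.

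WT discs gave 8 libraries, of which 6 were from yw flies and WT5 and WT6 were from flies with FRT82 and ubi-GFP. RpS3 discs (2 libraries) had the genotype FRT82B, RpS3[Plac92], ubi-GFP/+ and RpS3* discs (2 libraries) FRT82B, RpS3*/+, so that both were heterozygous for a mutant allele of RpS3, a ribosomal protein gene. RpS15 discs (2 libraries) were FRT42D, M(2)53[1]/+, a Minute mutation in another ribosomal protein gene whose cells are not eliminated by WT cells. Discs homozygous for a mutation of mahj, which codes for a component of a ubiquitin ligase complex, also carried hs-FLP and stauGFP/+ and the FRT42D site (2 libraries). RpS3+puc discs (3 libraries) were RpS3[Plac92] heterozygotes with FRT82 and ubi-GFP in which esg-Gal4 drove UAS-Puc and UAS-GFP. The gene puc codes for a phosphatase that inhibits JNK signalling, and esg-Gal4 is active only where the escargot enhancer is. No RpS3 library carried esg-Gal4 and UAS-GFP without UAS-Puc, so the transgenes and puc itself cannot be told apart. The labels give no separate collections for the replicates, and p-values measure the spread between these libraries only.

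Autophagy carries portions of cytoplasm to the lysosome inside a double membrane. The kinase Atg1 and its partners Atg13 and Atg17 start the process when nutrients are low or Tor is inactive, the membrane protein Atg9 and the lipid-binding Atg18a help the membrane to grow, and a conjugation system in which Atg7 and Atg5 take part attaches Atg8a to it. The ref(2)P protein, the fly counterpart of p62, binds ubiquitinated cargo and Atg8a and is itself degraded by autophagy, and its gene is a target of the oxidative stress factor cnc (Nrf2). RNA levels do not measure the rate of this process.

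The deposited values were FPKM (fragments per kilobase of transcript, relative to the size of the library), which allow levels of different genes to be compared per length. The steps between low values implied 12118039 to 16973234 reads per library. The targeted genes followed the labels: the puc level was 159.9 to 224.5 FPKM in the RpS3+puc libraries and 10.7 to 22.2 in all others, RpS3 had its lowest levels in the 7 libraries with an RpS3 mutation, and RpS15 and mahj had theirs in their own mutants. Of 8 wing disc markers that were found, all 8 reached 1 FPKM in every genotype (summed level 335.3 to 575.0). Summed markers of haemocytes were 19.9 to 38.4 FPKM, of larval muscle 22.4 to 64.6, of disc myoblasts 48.0 to 80.1 and of trachea, from 1 gene, 12.5 to 26.1. The 3 markers of the male germ line that were found summed to at most 0.529 FPKM. All 3 RpS3+puc libraries lay below the WT range in the sums of wing disc (335.3 to 442.5 FPKM against 457.0 to 538.4), haemocyte (19.9 to 22.1 against 23.7 to 38.4) and larval muscle markers (22.4 to 36.9 against 38.8 to 64.6). Against WT, limma called 5 of 8 wing disc and 3 of 3 haemocyte markers tested lower in RpS3+puc, where 24.9% of all genes were. It called 6 of 6 fat body and 2 of 4 disc myoblast markers lower. Of the 4 larval muscle markers tested, 1 was called lower and 1 higher, and the 1 trachea marker was not called. Of the 5 haemocyte markers, only 3 were tested. Both mahj libraries were also under the WT range for wing disc markers (424.2 and 456.9 FPKM), the second only just. They were under it for disc myoblasts too (48.0 and 53.8 against 55.4 to 80.1). Both RpS15 libraries were above it for wing disc (547.5 and 575.0) and trachea (22.6 and 26.1 against 15.9 to 18.1). For larval muscle they were below it (36.1 and 27.7). The part of these shifts in the mahj and RpS15 results was not tested. Fat body markers varied most, from 34.9 to 318.3 FPKM in WT. Their sums were 118.9 and 140.2 FPKM in the libraries of RpS3, 17.6 and 23.3 for RpS3*, 108.6 and 640.5 for RpS15, 61.4 and 1446 for mahj, and 4.85 to 8.98 for RpS3+puc. In whole discs, fewer cells of a type and less RNA per cell cannot be told apart.

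In WT discs the ubiquitin-like gene Atg8a had by far the highest level of the 10 genes, with 243.1 ± 37.6 FPKM (SD, n = 8), above 97.8% of all genes. The receptor gene ref(2)P followed with 44.7 ± 1.88 FPKM and Atg18a with 36.1 ± 3.27. The 8 libraries of each of these 3 genes lay apart from those of the next gene in the order. Below them came Atg1 at 24.0 ± 2.09 FPKM, Atg5 at 19.1 ± 1.67, Atg13 at 17.1 ± 2.00, Atg7 at 13.0 ± 1.15, Atg9 at 12.4 ± 1.38 and Atg17 at 9.67 ± 1.11. Within this lower series, the ranges of neighbours overlapped, although Atg1 was above Atg5, Atg13 above Atg7 and Atg9 above Atg17 in each of the 8 libraries. Atg8b, the paralogue of Atg8a, was listed at 0 in 17 of the 19 libraries and at 0.10 FPKM in WT1 and the second RpS15 library, a value that corresponds to about 1 read. It did not reach 1 FPKM in 2 libraries of any comparison, so 9 of the 10 genes were tested.

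**Figure D1:**
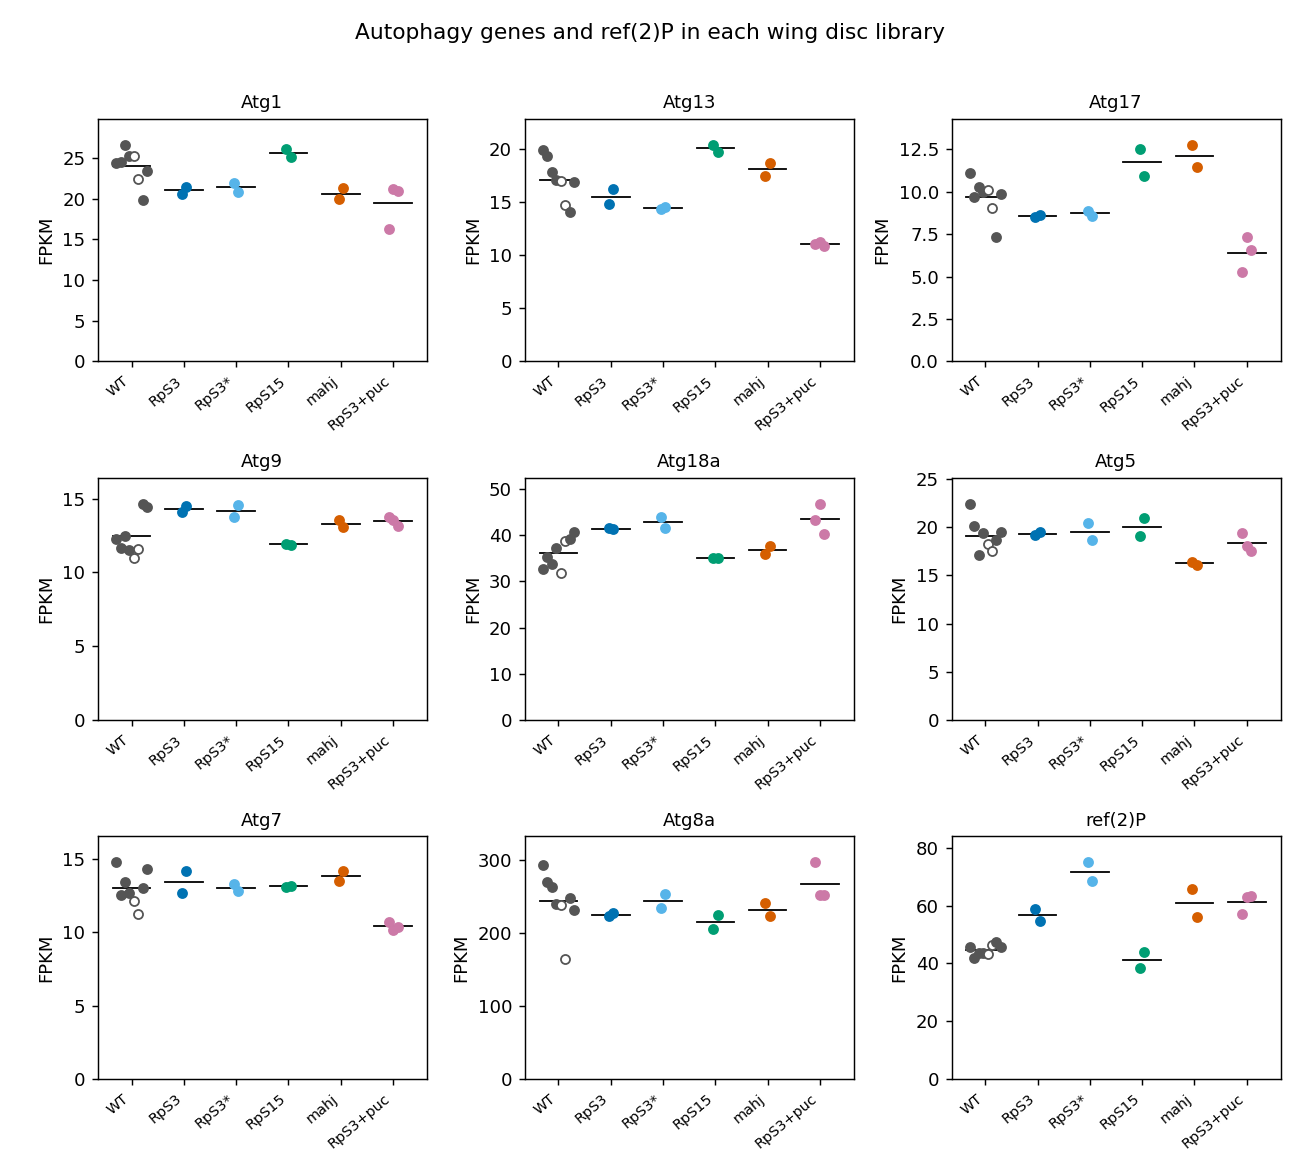
FPKM (vertical axes, from 0) of the 9 tested genes in each of the 19 libraries, by genotype (horizontal axes); points are libraries, open points are WT5 and WT6 with FRT82 and ubi-GFP, and lines are group means. The ref(2)P points of RpS3, RpS3*, mahj and RpS3+puc lie above the highest WT library at 47.4 FPKM, and the 3 RpS3+puc points of Atg13, Atg17 and Atg7 lie below every WT library.

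Each mutant was compared with the 8 WT libraries, and RpS3+puc also with RpS3, using limma on log2(FPKM + 1), and a gene was called where its p, adjusted by the Benjamini-Hochberg method over all genes tested, was under 0.1. These comparisons share libraries, and so their results are not independent of each other. In RpS3 discs, 1 of the 9 genes was called, where 18.6% of all 8053 genes tested were. RpS3* discs also had 1 of 9 called (22.8% of all genes), and mahj discs 1 of 9 (16.0%). The called gene was ref(2)P in each of the 3. In RpS15 discs 0 of the 9 genes were called by limma, against 21.1% of all genes, and 0 were at an unadjusted p under 0.05. RpS3+puc discs had 4 of 9 called against RpS3 (46.6% of all genes) and 6 of 9 against WT (62.3%), shares close to those of all genes. The median log2 fold change of the 9 genes was between −0.08 and 0.08 in these 6 comparisons, beside −0.02 to 0.09 over all genes, and in RpS3, RpS3* and RpS15 its sign turned from positive to negative when the libraries were rescaled by the median of ratios (to −0.07, −0.05 and −0.02).

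**Figure D2:**
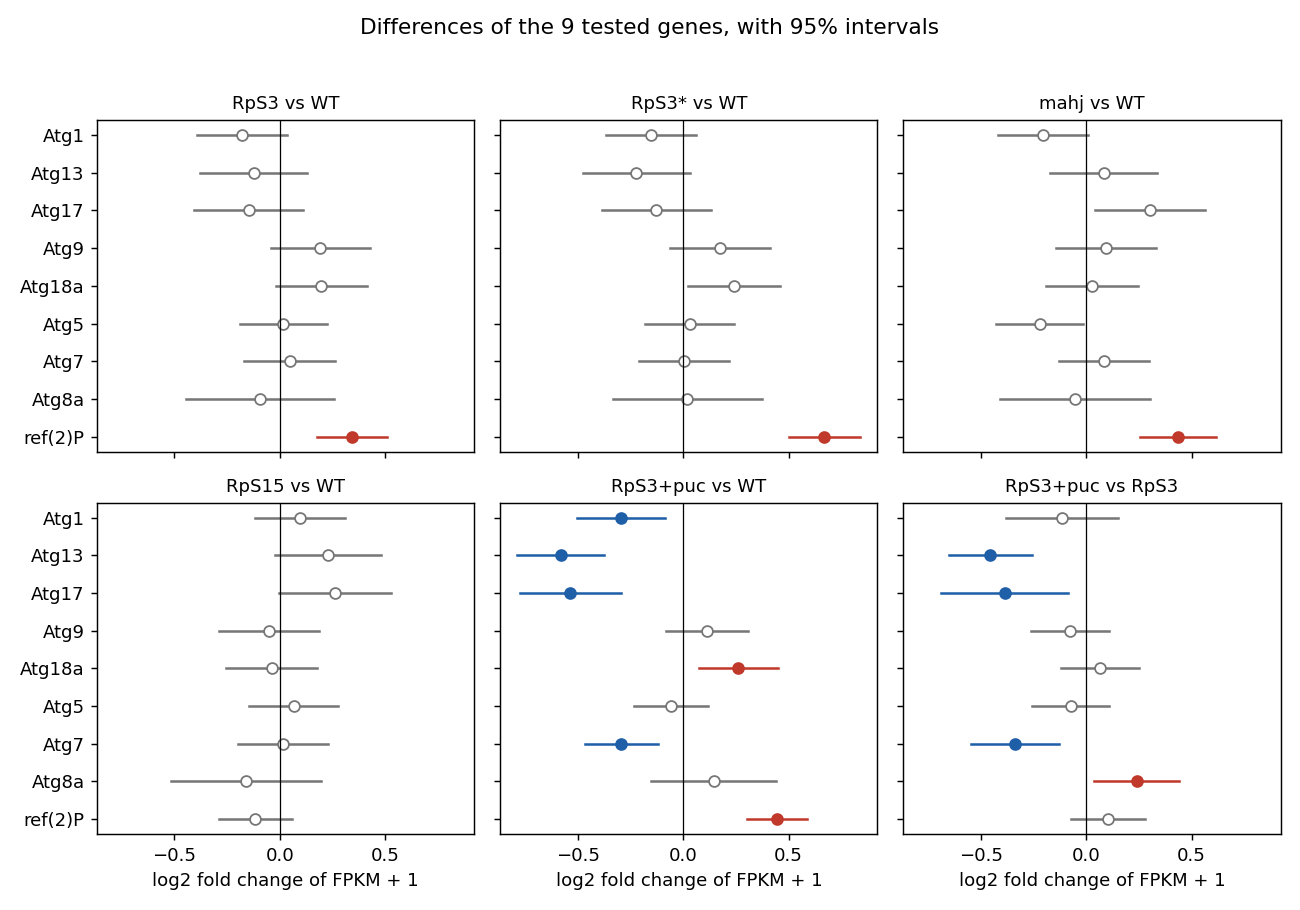
Log2 fold change of FPKM + 1 (horizontal axes) of the 9 tested genes in 6 comparisons, with 95% intervals from limma; filled red points were called higher and filled blue points called lower at an adjusted p under 0.1, open points were not called. ref(2)P is filled in RpS3 (0.34), RpS3* (0.67), mahj (0.44) and RpS3+puc (0.44) against WT and open in RpS15 (−0.12).

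The cargo receptor gene ref(2)P was higher in each genotype that carried an RpS3 mutation and in mahj, and the difference from WT ranged from 27.1% to 60.5% of the mean FPKM. It was at 41.9 FPKM in the lowest WT library, 44.6 at the median and 47.4 in the highest. The level was 58.9 and 54.8 FPKM in the RpS3 libraries, 75.0 and 68.5 in RpS3*, and 65.8 and 56.1 in mahj. RpS3+puc libraries had 57.1, 63.1 and 63.4 FPKM, and RpS15 libraries had 38.5 and 43.9. Thus all 9 libraries of RpS3, RpS3*, mahj and RpS3+puc lay above all 8 WT libraries, while 1 RpS15 library was inside the WT range and the other below it. Libraries did not overlap with WT for 25.1% of all genes in RpS3, 25.4% in RpS3*, 22.5% in mahj and 39.6% in RpS3+puc. The RpS3* libraries were the highest of all 19, and the ranges of RpS3+puc, mahj and RpS3 overlapped each other.

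On the log2(FPKM + 1) scale, ref(2)P rose by 0.34 in RpS3 (SE 0.08, limma adjusted p = 0.0157), by 0.67 in RpS3* (SE 0.08, adjusted p = 0.000105) and by 0.44 in mahj (SE 0.08, adjusted p = 0.00410). It was also higher in RpS3+puc than in WT, by 0.44 (SE 0.07, adjusted p = 0.000253). In RpS15 the difference was −0.12 with a 95% interval from −0.29 to 0.06 (adjusted p = 0.339), and thus not beyond the spread between libraries. RpS3+puc and RpS3 discs differed by 0.10, with an interval from −0.07 to 0.28 (adjusted p = 0.319), so no difference between them was detected. The RpS3 rise was no longer called without RpS3 replicate 1 (0.29, adjusted p = 0.303) nor the mahj rise without mahj replicate 1 (0.32, adjusted p = 0.221). Against the 2 FRT82 ubi-GFP WT libraries alone, which carry part of the same background, ref(2)P was higher by 0.33 in RpS3 (adjusted p = 0.0992) and by 0.44 in RpS3+puc (adjusted p = 0.0104). Against WT1 and WT2 alone, which had as many sequencing runs as mahj, it was higher by 0.46 in mahj (adjusted p = 0.0215).

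Sums of fat body markers were under the WT range (34.9 to 318.3 FPKM) in RpS3* and RpS3+puc and inside it in RpS3. In RpS15 they were 108.6 and 640.5 FPKM in the libraries with ref(2)P at 38.5 and 43.9. In mahj the library with the higher ref(2)P level, replicate 1, also had the higher sum (1446 FPKM against 61.4). The part of fat body RNA in the ref(2)P levels was not tested. In BDGP6.54, 173 of the 2395 exonic bases of ref(2)P on chromosome arm 2L (7.22%) are shared with CG10337 on the opposite strand, and whether the counting used strand is not given in the sources used here. CG10337 was at 2.91 to 7.49 FPKM in WT, 10.47 on average in RpS3, 12.2 and 18.6 in RpS3*, 15.1 and 22.0 in mahj, 6.604 and 7.007 in RpS15, and 7.31 to 7.87 in RpS3+puc. It was thus above all WT libraries in RpS3, RpS3* and mahj and near the highest of them in RpS3+puc, and the part of its reads in the ref(2)P values was not tested. The exons of the other 9 genes overlap no annotated gene.

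**Figure D3:**
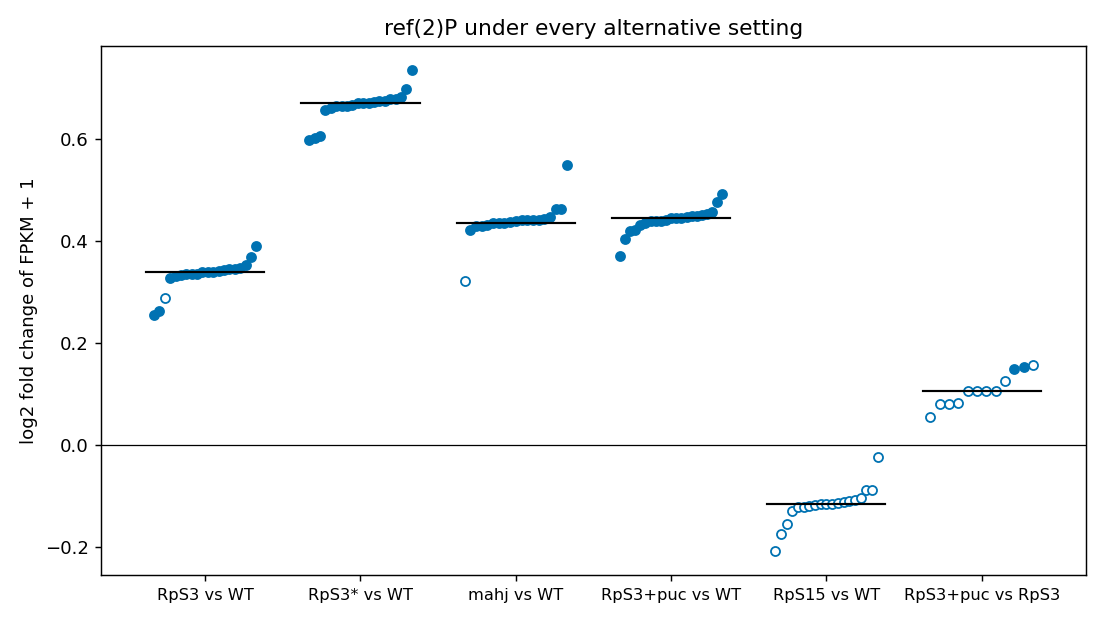
Log2 fold change of ref(2)P (vertical axis) in 6 comparisons; the black line is the value reported and each point 1 alternative setting, filled where ref(2)P was called and open where it was not. Against WT the call was kept in 19 of 20 settings for RpS3, 20 of 20 for RpS3*, 18 of 19 for mahj and 21 of 21 for RpS3+puc.

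Among 6004 genes with a mean of at least 10 FPKM, those whose log2(FPKM + 1) followed ref(2)P most closely over the 19 libraries were wus (Pearson r = 0.957), CG10916 (0.956), Ugt302C1 (0.955), Nt5b (0.953) and CG10005 (0.953). These r values are a description, since the libraries of a genotype share their mutation. The gene wus codes for a membrane protein with a DnaJ domain and Ugt302C1 for an enzyme of the UDP-glycosyltransferase family, which adds sugars to foreign and internal compounds. The mean of Nt5b was 7.86 FPKM in WT, 21.4 in RpS3, 35.0 in RpS3*, 31.0 in mahj, 26.0 in RpS3+puc and 7.73 in RpS15. The mean of CG10005 was 74.7 FPKM in WT, 98.7 in RpS3, 133.1 in RpS3*, 90.5 in mahj, 109.1 in RpS3+puc and 65.97 in RpS15. For all 5, as for ref(2)P, the RpS3, RpS3*, mahj and RpS3+puc libraries were above all WT libraries, and RpS3* had the highest mean. The 5 were chosen for following ref(2)P over these same libraries, so this likeness comes from the choice and is no separate result. In RpS15, CG10916 was lower than in WT (−0.25, limma adjusted p = 0.0710), and both RpS15 libraries of CG10916 and of CG10005 lay below every WT library.

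**Figure D4:**
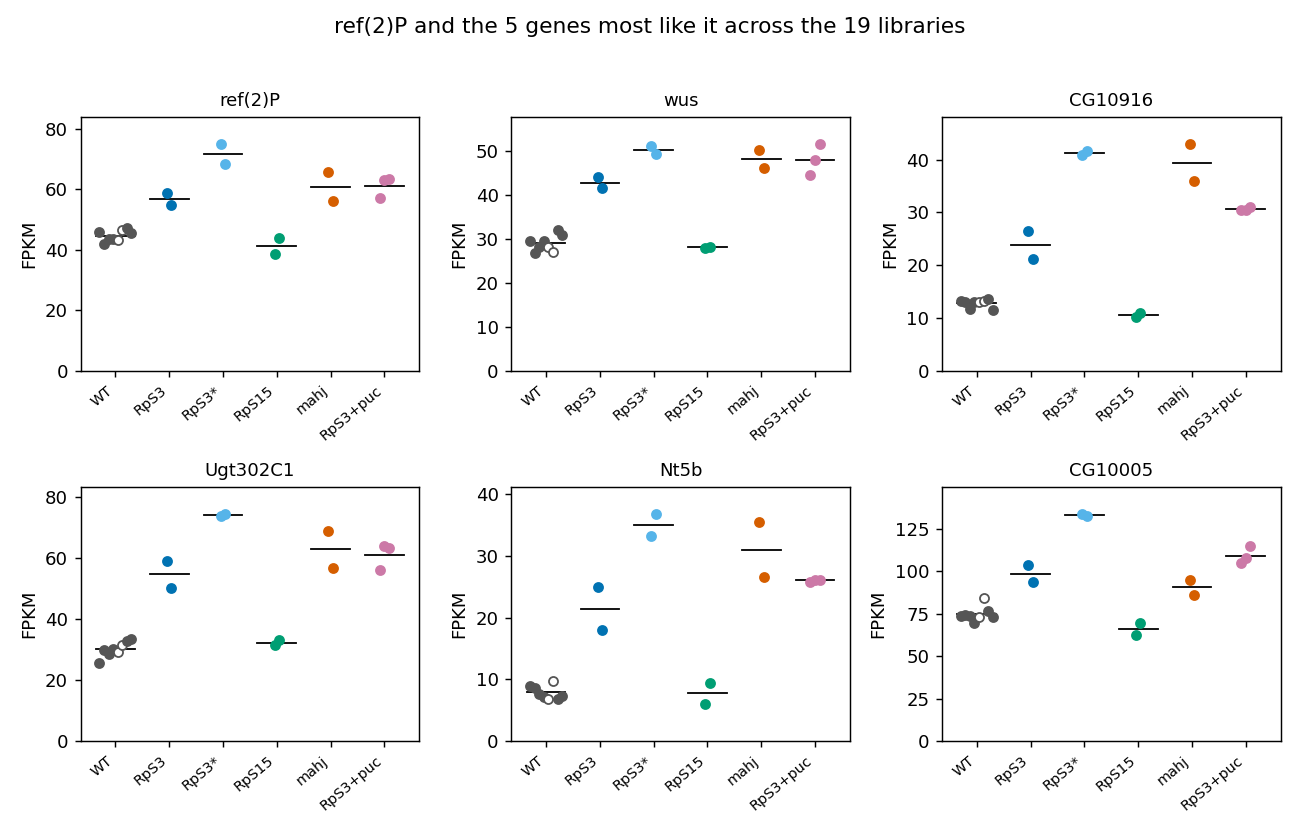
FPKM (vertical axes, from 0) of ref(2)P and of the 5 genes with the highest Pearson r to it, in each of the 19 libraries by genotype; points are libraries, open points are WT5 and WT6, and lines are group means. In all 6 panels RpS3* has the highest mean, and no RpS15 library reaches the lowest library of RpS3, RpS3*, mahj or RpS3+puc. The likeness of the panels comes from the choice of genes by r.

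Among the genes of the initiation complex, Atg13 and Atg17 were lower in RpS3+puc discs than in RpS3 and in WT discs, and neither was called in RpS3, RpS3*, RpS15 or mahj against WT. The sums of wing disc, haemocyte, muscle and fat body markers were also below WT in the RpS3+puc libraries, and their part in this and the other RpS3+puc results was not tested. Atg13, on arm 3R, codes for the regulatory partner of the Atg1 kinase. It was at 14.1 FPKM in the lowest WT library, 17.0 at the median and 19.8 in the highest, at 14.8 and 16.2 in RpS3, and at 11.1, 11.2 and 10.8 in RpS3+puc. RpS3* libraries had 14.3 and 14.5 FPKM, RpS15 libraries 20.4 and 19.7, and mahj libraries 17.4 and 18.7. The 3 RpS3+puc libraries were close together and lay below all 16 others. Libraries did not overlap for 64.3% of all genes between RpS3+puc and RpS3, and for 39.6% between RpS3+puc and WT. Atg13 fell by 0.45 on the log2(FPKM + 1) scale against RpS3 (SE 0.09, limma adjusted p = 0.00643) and by 0.58 against WT (SE 0.10, adjusted p = 0.000479). It was called in all 12 alternative settings against RpS3, between −0.51 and −0.35, and in all 21 against WT, between −0.73 and −0.48.

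Atg17, also on 3R, codes for the scaffold of the complex, the counterpart of mammalian FIP200. It was at 7.33 FPKM in the lowest WT library, 9.91 at the median and 11.1 in the highest. The level was 8.51 and 8.65 FPKM in RpS3, and 5.28, 7.32 and 6.55 in RpS3+puc. The RpS3+puc libraries lay below all others, although the highest of them nearly reached the lowest WT library. Atg17 fell by 0.39 against RpS3 (SE 0.13, limma adjusted p = 0.0499) and by 0.53 against WT (SE 0.11, adjusted p = 0.00190). Its transcripts are the longest of the 10 genes in BDGP6.54 (6282 to 6303 bases), and once the trend of the fold changes with transcript length was removed the differences were −0.05 (adjusted p = 0.687) and −0.13 (adjusted p = 0.169), so neither call was kept. The call against RpS3 was also lost without RpS3 replicate 1 (adjusted p = 0.185) or replicate 2 (adjusted p = 0.226).

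In mahj discs Atg17 was at 12.8 and 11.5 FPKM and in RpS15 discs at 12.5 and 10.9. Both mahj libraries were above every WT library, but the difference of 0.30 was not called (adjusted p = 0.140), and such a separation was found for 22.5% of all genes in mahj. In RpS15, where the libraries overlapped with WT, the difference was 0.26 (adjusted p = 0.170).

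Atg1, on 3L, codes for the kinase itself. It was at 19.9 FPKM in the lowest WT library, 24.5 at the median and 26.7 in the highest, and at 16.3, 21.2 and 21.0 in RpS3+puc. It fell by 0.29 in RpS3+puc against WT (SE 0.10, limma adjusted p = 0.0210), although 2 of the 3 libraries were within the WT range. Without RpS3+puc replicate 1, at 16.3 FPKM, the difference was −0.17 (adjusted p = 0.174), and with the length trend removed the difference was −0.08 (adjusted p = 0.383). RpS3 (20.6 and 21.5 FPKM), RpS3* (22.0 and 20.9) and mahj (19.95 and 21.3) lay in the lower part of the WT range and RpS15 (26.1 and 25.1) in the upper part, with no call. Between RpS3+puc and RpS3, Atg1 differed by −0.11 with an interval from −0.38 to 0.15.

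Of the genes of membrane supply and growth, Atg18a was higher in RpS3+puc discs than in WT and Atg9 was not called. Atg18a, on 3L, codes for a WIPI family protein that binds phosphatidylinositol phosphates. It was at 31.9 FPKM in the lowest WT library, 36.2 at the median and 40.6 in the highest, at 41.6 and 41.3 in RpS3, 43.9 and 41.6 in RpS3*, and 43.3, 46.8 and 40.2 in RpS3+puc. RpS15 (35.1 and 35.0 FPKM) and mahj (35.8 and 37.6) were near the middle of the WT range. Atg18a rose by 0.26 in RpS3+puc against WT (SE 0.09, limma adjusted p = 0.0221), with 1 of the 3 libraries inside the WT range, and the call was lost without RpS3+puc replicate 2 (adjusted p = 0.114). In RpS3 and RpS3* all 4 libraries were above all WT libraries, a separation that 25.1% and 25.4% of all genes showed in the respective comparison, and the differences of 0.20 and 0.24 were not called (adjusted p = 0.207 and 0.124).

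Atg9, on 2R, codes for the transmembrane protein of the pathway and was not called in any mutant against WT or in RpS3+puc against RpS3. It was at 11.0 FPKM in the lowest WT library, 11.9 at the median and 14.7 in the highest. The libraries of RpS3 (14.1 and 14.5), RpS3* (13.7 and 14.6), mahj (13.5 and 13.0) and RpS3+puc (13.8, 13.5 and 13.2) were in the upper part of that range, while both RpS15 libraries were at 11.9. WT7 and WT8, at 14.7 and 14.4 FPKM, were as high as the mutants, and the other 6 WT libraries reached at most 12.5.

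Of the genes of the conjugation system, Atg7 was lower in RpS3+puc discs and Atg8a was higher there than in RpS3 discs. Atg7, on 2R, codes for the activating enzyme of both conjugation reactions. It was at 11.2 FPKM in the lowest WT library, 12.9 at the median and 14.8 in the highest, at 12.7 and 14.2 in RpS3, and at 10.7, 10.2 and 10.4 in RpS3+puc. The RpS3+puc libraries were the lowest 3 of the 19. Atg7 fell by 0.34 against RpS3 (SE 0.09, limma adjusted p = 0.0222) and by 0.29 against WT (SE 0.08, adjusted p = 0.00900). The first call was lost without RpS3 replicate 2 (−0.26, adjusted p = 0.221) and the second against the FRT82 ubi-GFP WT libraries alone (−0.15, adjusted p = 0.297). In RpS3*, RpS15 and mahj discs Atg7 was between 12.8 and 14.2 FPKM, within the WT range.

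Atg8a, on X, codes for the ubiquitin-like protein that is joined to a membrane lipid and to which ref(2)P binds. WT libraries spread widely, from 164.2 FPKM in WT6 over a median of 243.7 to 292.3. RpS3 libraries had 222.5 and 227.5 FPKM and RpS3+puc libraries 296.5, 251.7 and 251.5. All 3 RpS3+puc libraries were above both RpS3 libraries, and 2 of the 3 were within the WT range. Atg8a rose by 0.24 in RpS3+puc against RpS3 (SE 0.09, limma adjusted p = 0.0630), a call kept in 6 of 12 alternative settings. It was lost without RpS3 replicate 1 (adjusted p = 0.260) or replicate 2 (adjusted p = 0.227), and with the length trend removed the difference was 0.10 (adjusted p = 0.228). RpS3* (233.8 and 253.7 FPKM), RpS15 (205.4 and 224.3) and mahj (240.2 and 223.1) did not leave the WT range.

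Atg5, on X, codes for the protein that is joined to Atg12. It was at 17.1 FPKM in the lowest WT library, 18.998 at the median and 22.5 in the highest. In mahj discs it was at 16.4 and 16.1 FPKM, below all 8 WT libraries, but the difference of −0.22 was not called (limma adjusted p = 0.175). Libraries of mahj and WT did not overlap for 22.5% of all genes. Libraries of RpS3, RpS3*, RpS15 and RpS3+puc were between 17.5 and 20.9 FPKM, inside the WT range.

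The mutants were also compared with each other and the WT stocks among themselves, in limma fits over all 19 or over the 8 WT libraries. RpS3* and RpS3, alleles of the same gene, had 0 of 9 genes called, where 0.821% of all genes were, and 1 at an unadjusted p under 0.05. That gene was ref(2)P, at 0.33 with an interval from 0.13 to 0.54 (adjusted p = 0.201), and both RpS3* libraries were above both RpS3 libraries. The libraries of these alleles did not overlap for 51.8% of all genes. Against the mean of both RpS3 alleles, mahj discs had 2 of 9 called (27.8% of all genes). Atg17 was higher in mahj by 0.44 (SE 0.13, adjusted p = 0.0239) and Atg5 lower by 0.24 (log2 fold change −0.24, SE 0.09, adjusted p = 0.0687), the former without a call when mahj replicate 1 was left out (adjusted p = 0.209) and the latter called in 4 of 12 alternative settings. For ref(2)P, mahj and the RpS3 alleles differed by −0.07, with an interval from −0.25 to 0.11.

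RpS3, RpS3* and mahj, the genotypes whose cells the study treats as prospective losers, were together compared with RpS15. Here 6 of 9 genes were called, beside 52.4% of all genes. The difference was largest for ref(2)P, higher by 0.60 (SE 0.08, limma adjusted p = 2.55e-05) and called in all 14 alternative settings. Atg13 was lower by 0.32 (log2 fold change −0.32, SE 0.10, adjusted p = 0.0192) and called in 13 of 14 settings, all but the one without RpS15 replicate 1 (adjusted p = 0.127), and Atg1 was lower by 0.27 (log2 fold change −0.27, adjusted p = 0.0388), called in 11 of 14. Atg9 was 0.21 higher, Atg18a 0.19 higher and Atg17 0.25 lower (log2 fold change −0.25), each called in no more than 6 of 14 alternative settings. The Atg17 difference did not hold for mahj. Its mean was 12.1 FPKM there and 11.7 in RpS15, beside 8.58 in RpS3 and 8.72 in RpS3*.

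The WT libraries with FRT82 and ubi-GFP and those from yw flies had 0 of 9 genes called by limma, where 0.815% of all genes were. Atg8a was the 1 gene at an unadjusted p under 0.05, at −0.37 (adjusted p = 0.462), and ref(2)P differed by 0.01.

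Over the 19 libraries, the levels of Atg13 and Atg17 had a Pearson r of 0.90, Atg13 and Atg7 of 0.78, and Atg13 and Atg18a of −0.77. Those of ref(2)P had an r of 0.69 with Atg18a, 0.64 with Atg9 and −0.67 with Atg1. The libraries share genotypes, and the RpS3+puc libraries are at an end of the range for several of these genes.

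Other genes of the pathway were taken in 4 lists of 53 tested genes: 20 of the remaining autophagy machinery, 9 upstream regulators, 17 of the lysosome and 7 linked to ref(2)P as partners or regulators. In RpS3 discs 2 of the 53 were called higher and 1 lower, beside 14.4% and 4.17% of all genes. In RpS3* discs 1 was called higher and 1 lower, beside 16.5% and 6.33%. Rescaled by the median of ratios, the counts were 0 higher and 3 lower in RpS3 and 1 higher and 4 lower in RpS3*, and with the length trend removed 5 higher and 1 lower in RpS3 and 2 higher and 4 lower in RpS3*. None of the 20 machinery genes was called by limma in either (0 of 20, with 1 and 2 at an unadjusted p under 0.05). The gene park, called in both genotypes, codes for the ubiquitin ligase Parkin that marks damaged mitochondria. It was at 4.13 to 7.61 FPKM in WT, 7.63 and 9.29 in RpS3, and 8.27 and 9.59 in RpS3*. The lower RpS3 library was thus just above the highest WT library. The park difference was 0.59 in RpS3 (adjusted p = 0.0661) and 0.66 in RpS3* (adjusted p = 0.0353), and leaving out either library of a mutant ended its call. Against the FRT82 ubi-GFP WT libraries alone, park was not called in RpS3 (0.24, adjusted p = 0.313) nor in RpS3* (0.32, adjusted p = 0.186). The other calls were the transcription factor foxo (−0.31) and the vesicle tethering gene car (0.30) in RpS3 and the deacetylase HDAC6 (−0.41) in RpS3*. Each of these calls was lost when some single library was left out, and that of car also with the median of ratios.

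In mahj discs 2 of the 53 genes were called, both lower, where 9.33% of all genes were called higher and 6.70% lower. Atg10, the enzyme that joins Atg12 to Atg5, was at 5.96 to 9.27 FPKM in WT and at 2.380 and 3.0003 in mahj, and all 9 libraries of the other mutants were at 5.18 FPKM or above. It fell by 1.19 on the log2(FPKM + 1) scale (SE 0.15, limma adjusted p = 0.000183). VhaSFD, a subunit of the lysosomal proton pump, was at 53.9 to 78.1 FPKM in WT and at 41.6 and 42.0 in mahj and fell by 0.68 (adjusted p = 0.00480). The VhaSFD call, unlike that of Atg10, was lost when some single library was left out.

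RpS15 discs, in which no member was called, had 7 of the 53 genes called higher and 5 lower, beside 12.1% and 8.99% of all genes. The balance turned to 4 higher and 8 lower with the median of ratios and to 2 higher and 6 lower with the length trend removed. Atg12, which is joined to Atg5, was lower (−0.58), with 13.6 and 13.8 FPKM against 15.9 to 27.0 in WT. The lipid transfer gene Atg2 (0.42), the Atg13 partner Atg101 (0.34), the growth kinase Tor (0.38), foxo (0.30), the vesicle tethering gene lt (0.54) and the lysosomal efflux gene spin (0.28) were higher. The fusion gene Syx17 (−0.36), the AMPK subunit gene alc (−0.33), VhaSFD (−0.51) and the protease gene cathD (−0.45) were lower. Each of these named genes kept its direction when single libraries were left out, but lost its call in some of those fits. With the length trend removed, 0 of the 9 upstream regulators were called higher, so the calls of Tor and foxo were lost.

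In RpS3+puc against RpS3, 3 of the 53 genes were called higher and 17 lower, beside 21.5% and 25.1% of all genes. With the length trend removed, the counts were 9 higher and 11 lower. The upstream regulators had 1 called higher and 6 lower of 9, with a median log2 fold change of −0.33 beside −0.02 over all genes. Among the lower ones were Tsc1 (−0.49) and gig (−0.46), which form the complex that inhibits Tor. With the length trend removed, 1 of the 9 was higher and 3 were lower, and the median was −0.04 beside −0.0037 over all genes. Of the machinery genes, Atg12 rose by 0.47 while Atg2 (−0.52) and Epg5 (−0.40) fell, the latter call being lost (adjusted p = 0.977) with the length trend removed. Of the lysosome genes, cathD rose by 0.38 while car (−0.55) and the lysosomal channel gene Trpml (−0.36) fell. Of those linked to ref(2)P, aPKC (−0.43) and Traf6 (−0.20) fell. In this list 1 of the 7 genes was called lower with the median of ratios. With the length trend removed 2 were higher and 1 lower, so aPKC and Traf6 did not both keep their calls. The calls of Atg12, Epg5, Trpml and Traf6 were also lost when some single library was left out.

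Against WT, RpS3+puc discs had 11 of the 53 genes called higher and 19 lower, beside 37.4% and 24.9% of all genes. The counts were 8 higher and 24 lower with the median of ratios and 11 higher and 13 lower with the length trend removed. Mitf, which codes for the TFEB family activator of lysosomal genes, was at 30.5 to 52.7 FPKM in WT and 24.5 to 29.5 in RpS3+puc and fell by 0.61 (limma adjusted p = 0.00450). Atg12 (0.67), Atg14 (0.32), alc (0.21), cathD (0.46), Cp1 (0.33) and park (0.68) were higher, and Atg2 (−0.41), bchs (−0.44), foxo (−0.33), the cholesterol transporter gene Npc1a (−0.52), Trpml (−0.44), aPKC (−0.70) and cnc (−0.34) were lower. The calls of alc, bchs and cnc turned in direction and were lost with the length trend removed. In that setting 1 of the 9 upstream regulators was called lower, beside 5 as deposited. Mitf and foxo thus did not both keep their calls.

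**Figure D5:**
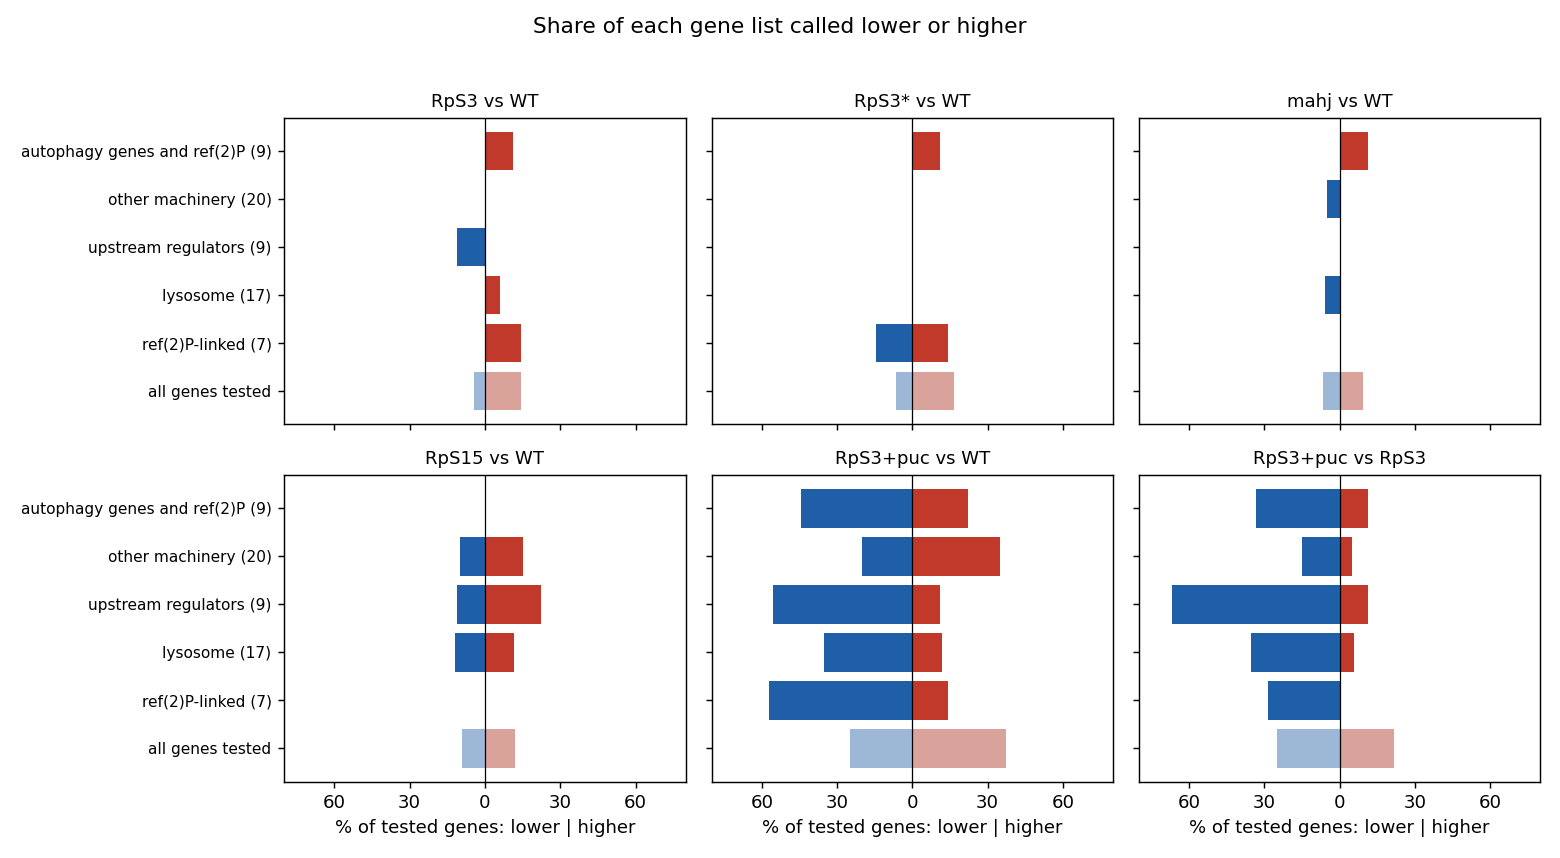
Percent of the tested genes of each list (horizontal axes, called lower to the left and called higher to the right of 0) in the comparisons with WT or RpS3, beside all genes tested. In RpS3+puc against RpS3, 6 of the 9 upstream regulators are to the left, and in RpS3 and RpS3* no bar is drawn for the other autophagy machinery.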

How the data were processed

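RNA was extracted with RNeasy from 50 wing discs per sample, and libraries were made with the Illumina TruSeq kit. The deposited FPKM values were made by the authors from reads mapped, per the submitters' processing notes, with BWA 0.6.2 to dm3. The unit was read from the values, and RPKM would look alike. Pooled runs gave 1 column per library, and the column of WT1 is headed with its first run only. Whether strand was used in counting is not given in the sources used here. Of the low values, 97.3% to 97.8% were whole multiples of 1 read within 0.02, which implied 12118039 to 16973234 reads per library. At this depth Atg8b had at most about 1 read in a library.

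The 19 libraries, grouped by the labels, were the replicates. A gene was tested where 2 or more of the libraries compared reached 1 FPKM. The test ran on log2(FPKM + 1), so that fold changes of low genes are understated, with limma 3.58.1 and statmod 1.5.0 in R 4.3.3 (empirical Bayes with trend and robust settings). p-values were adjusted by Benjamini-Hochberg over all genes tested, and an adjusted p under 0.1 was called. The 6 comparisons with WT or RpS3 used the libraries compared, and those between mutants used all 19. Alternatives changed the pseudocount, filter, threshold, scaling (median of ratios), transcript length trend (lowess, span 0.3), replicate block, WT libraries and each replicate.

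The genes named were all 10 members, up to 2 of each list called highest and lowest per comparison, the 5 most correlated with ref(2)P at a mean of at least 10 FPKM, and the targeted genes. CG10337 was added after its overlap was seen. The markers were lists of defining genes of wing disc, fat body, haemocytes, larval muscle, disc myoblasts, trachea and male germ line. Members and lists were chosen with earlier results of these data known. Of the lysosome list, 17 of 20 symbols were matched. Chromosome arms, transcript lengths and exon overlaps were taken from BDGP6.54, a different build from dm3, so no coordinates are given. The script was tested on simulated data.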

Additional observations from a re-analysis of the deposited data

Results flagged for a closer look

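Atg8b stood out in WT1, where it was at 0.104 FPKM while the other 7 WT libraries were at 0. This was the only gap of its kind among the 10 members in the 8 WT libraries, and the value corresponds to about 1 read. The check is set so that chance passes it in about 1 of 20 groups. That rate does not hold for Atg8b, because with 7 libraries at 0 any read in the other library passes the check.

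Mutant genotypes differed from each other for several members, by limma tests of mutant against mutant. Between mahj and the RpS3 alleles, Atg17 was 0.44 higher on the log2(FPKM + 1) scale and Atg5 differed by −0.24. Between the joint RpS3, RpS3* and mahj libraries and RpS15, ref(2)P was 0.60 higher, Atg9 0.21 higher and Atg18a 0.19 higher. In the same comparison the differences were −0.32 for Atg13, −0.27 for Atg1 and −0.25 for Atg17. The members called were 2 of 9 in the former comparison, beside 27.8% of all genes, and 6 of 9 in the latter, beside 52.4%. Against RpS15, Atg9, Atg18a and Atg17 were called in only 6, 5 and 3 of 14 alternative settings. The mean of Atg17 in mahj (12.1 FPKM) was not below that in RpS15 (11.7 FPKM).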

How the results depend on the processing

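Of 1449 member results under alternatives, 1348 kept their side of the threshold, of which 81 changed sign without being called, 58 lost and 41 gained a call, and 2 turned. Of 161 counts of members called, 33 moved by over 1.5 times. Of 773 results of the other list genes, 649 kept their call, 121 lost it and 3 turned. With the transcript length trend removed, Atg17 turned to 0.019 (adjusted p = 0.876) between the RpS3, RpS3* and mahj libraries and RpS15, and in RpS3+puc against WT bchs turned to 0.19 (adjusted p = 0.181), alc to −0.025 (adjusted p = 0.805) and cnc to 0.11 (adjusted p = 0.543). The cause was not tested. The same setting called 3 members in mahj and 1 in RpS3* against RpS3, beside 20.4% and 1.57% of all genes. The count was 2 in RpS3 against the FRT82 ubi-GFP WT libraries alone (19.4% of all genes). With all 19 libraries fitted together it was 2 in RpS3* and 3 in mahj (32.1% and 22.7%). With the WT libraries limited to those with the same number of runs it was 1 in RpS15 and 4 in mahj (24.4% and 32.1%). Without a filter on low values it was 3 in the comparison with RpS15 (36.3%). At an adjusted p under 0.05 it was 3 there (42.9%) and 1 in mahj against the RpS3 alleles (18.9%).

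Leaving out each library in turn gave counts of 0 to 2 in RpS3, 1 to 4 in RpS3*, 0 in RpS15 and 0 to 3 in mahj. RpS3+puc had 1 to 5 against RpS3 and 5 to 6 against WT, RpS3* against RpS3 0, mahj against the RpS3 alleles 0 to 2, the comparison with RpS15 1 to 4, and the WT stocks 0. The counts fell to 0 without RpS3 replicate 1 in RpS3 and without mahj replicate 1 in mahj and in mahj against the RpS3 alleles. The share of all genes called fell there as well, to 1.69%, 3.50% and 9.32%. Without WT replicate 7 they rose to 2 in RpS3, 4 in RpS3* and 3 in mahj, and without WT replicate 6 or 8 to 2 in RpS3*. RpS3+puc against RpS3 gave 2 without RpS3 replicate 1 and 1 without replicate 2. The comparison with RpS15 gave 1 without RpS15 replicate 1, 2 without replicate 2 and 3 without either RpS3 replicate. The share of all genes called also fell in each of these fits of RpS3+puc against RpS3 and of the comparison with RpS15. Where 1 library of a genotype was left, it was assumed to vary like the others.

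Replicate numbers showed no clear pairing of the libraries: over 31 same-numbered pairs the correlation of deviations from the group means was −0.28 to 0.26, and 9 were above 0.1. Between groups of 2 libraries, both pairs give the same value by construction. The 31 values are thus not separate checks and cannot settle whether the libraries were paired. With the number as a replicate block, 7 members were called in RpS3 (3 higher and 4 lower), 4 in RpS3*, 1 in RpS15, 4 in mahj and 4 in mahj against the RpS3 alleles, beside 50.4%, 46.8%, 28.4%, 36.1% and 43.9% of all genes, and Atg8a turned to −0.20 in RpS3* (adjusted p = 0.0905). Under this block WT3 to WT8 do not enter these fold changes against WT, because only WT1 and WT2 share a number with these mutants. For RpS15 and mahj the fold changes against WT are thus those of the setting with WT1 and WT2 alone. A crossed replicate block for RpS3* against RpS3, chosen after seeing the data, called 0 of 9, as did the labelled one.

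The share of all calls that were higher fell from 77.6% to 58.8% in RpS3, 72.2% to 58.5% in RpS3* and 57.4% to 41.1% in RpS15 with the median of ratios, and rose from 27.6% to 46.9% in mahj against the RpS3 alleles. With the length trend removed it was 58.0%, 57.3%, 49.3% and 51.3% in these 4 comparisons and 50.5% instead of 60.1% in RpS3+puc against WT.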
